A study of Mus musculus with 2 samples.

Results

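The killer lectin-like receptors are a family of membrane proteins of natural killer (NK) cells and of some T cells, most of them encoded in the natural killer gene complex. Members were the rows of the gene list named Klrd1, Klrk1, Klrc1, Klre1, Klrg1, Klrb1c, Klra8, Klra4 and Klri2, which are 9 of 27998 gene identifiers. The study profiled immune cells from mouse lymph nodes after heart transplantation with a Chromium single-cell 3′ kit, in which each captured transcript is counted once as a unique molecular identifier (UMI). The allogeneic library came from BALB/c recipients of a C57BL/6 heart and the syngeneic library from BALB/c recipients of a BALB/c heart. Both labels give an age of 6 to 8 weeks, and neither states the day of sampling, the number of mice pooled or which nodes were taken. There was 1 library per group, so no difference between the groups has a replicate check and no test was made. Intervals below are exact 95% intervals that cover counting error only.

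These receptors read the surface of other cells. CD94, encoded by Klrd1, pairs with NKG2A, encoded by Klrc1, into an inhibitory receptor for the non-classical class I molecule Qa-1, while NKG2D, encoded by Klrk1, is an activating receptor for stress-induced ligands that signals through DAP10 (Hcst) and, in NK cells, DAP12 (Tyrobp). The Ly49 receptors, among them Ly49D (Klra4) and Ly49H (Klra8), bind class I molecules or viral proteins, and their number differs between inbred strains; BALB/c mice carry neither of those genes, whereas the mm10 reference is a C57BL/6 genome. In CD8 T cells several of these receptors appear with memory differentiation or with cytokine exposure, and KLRG1 (Klrg1), which binds cadherins, also marks a fraction of regulatory T cells.

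All 9 genes lie on chromosome 6 (mm10). In order along it they are Klrg1 (122270596 to 122282882), Klrb1c (128778485 to 128789215), Klre1 (129577905 to 129585827), Klrd1 (129591782 to 129598775), Klrk1 (129610323 to 129623864), Klrc1 (129666015 to 129678973), Klri2 (129729041 to 129740484), Klra4 (130043731 to 130067271) and Klra8 (130115226 to 130129898). Klre1 and Klrd1 are on the plus strand and the other 7 on the minus strand. Without Klrg1, which lies 6496 kb away, the genes span 1351 kb, and Klre1, Klrd1, Klrk1 and Klrc1 sit within 101 kb. Klrb1c overlaps the annotated gene Gm44511 on the same strand, so reads from any transcribed stretch that both share would be ambiguous. Whether their exons or 3′ ends overlap was not tested. The kit reads the 3′ ends of transcripts, and over the last 300 bases of the annotated transcripts Klrc1 matched its neighbour Klrc2 at 299 bases (99.7%). Klra8 matched Klra9 at 96.7% and Klra4 matched Klra1 at 83.0%, while the closest relative of each other member reached at most 50.7%. Counts of Klrc1, Klra4 and Klra8 are therefore uncertain wherever reads could not be assigned to a single copy. Whether such reads were left uncounted was not tested.

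RefSeq (GRCm38.p6, the mm10 assembly) gave a start-site window for 6 of the 9 members. The 250 bases before the start are printed below for Klrk1, the member that differed most between the libraries among those measured in CD8 T cells, for its neighbour Klrc1, and for the Ly49 genes Klra4 and Klra8, which had almost no UMIs. Capitals mark the core RUNX motif.

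Klrk1, chr6:129623865-129624114, minus strand: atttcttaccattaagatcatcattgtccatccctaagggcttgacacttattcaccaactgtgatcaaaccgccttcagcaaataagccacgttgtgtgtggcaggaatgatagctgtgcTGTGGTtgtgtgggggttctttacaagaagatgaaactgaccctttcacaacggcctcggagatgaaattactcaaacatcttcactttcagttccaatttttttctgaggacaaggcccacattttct
Klrc1, chr6:129678974-129679223, minus strand: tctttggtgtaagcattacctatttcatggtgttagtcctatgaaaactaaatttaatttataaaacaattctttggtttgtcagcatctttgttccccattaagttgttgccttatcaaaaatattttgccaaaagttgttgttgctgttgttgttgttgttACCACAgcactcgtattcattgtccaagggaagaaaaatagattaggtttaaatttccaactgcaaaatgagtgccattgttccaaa
Klra4, chr6:130067272-130067521, minus strand: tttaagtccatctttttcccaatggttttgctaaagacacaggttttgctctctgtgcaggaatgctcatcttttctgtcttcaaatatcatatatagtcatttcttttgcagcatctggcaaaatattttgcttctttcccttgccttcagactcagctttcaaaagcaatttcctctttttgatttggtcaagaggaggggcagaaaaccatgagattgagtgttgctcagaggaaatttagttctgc
Klra8, chr6:130129899-130130148, minus strand: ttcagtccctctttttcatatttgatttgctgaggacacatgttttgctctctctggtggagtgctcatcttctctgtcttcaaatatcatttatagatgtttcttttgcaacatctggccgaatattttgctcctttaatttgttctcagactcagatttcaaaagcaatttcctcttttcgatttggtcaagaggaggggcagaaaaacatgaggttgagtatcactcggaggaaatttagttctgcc

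Both strands of each window were searched for TGTGGT (RUNX), GGTGTGA (T-box), TGANTCA (AP-1), TTCNNNGAA (the STAT element GAS) and the interferon element ISRE (GAAA, any 2 bases, GAAA). These are held by 14.0%, 3.33%, 6.75%, 7.02% and 2.98% of the 32851 mouse windows of the same length. The RUNX core occurred 129 bases before the Klrk1 start, 87 bases before the Klrc1 start (as its complement ACCACA) and, in windows not printed, 89 bases before the Klrb1c start and 229 bases before a Klre1 start. None of the other letter patterns was found in any window. The windows of Klra4 and Klra8 were identical at 212 of 250 bases (84.8%) and held none of the 5 patterns.

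The allogeneic library held 3500 barcodes and the syngeneic library 7967. Barcodes with under 200 genes or over 10% mitochondrial UMIs were left out, and 2106 allogeneic cells (7677636 UMIs, median 3147 per cell) and 7957 syngeneic cells (46437189 UMIs, median 4917) remained. The libraries stand apart: haemoglobin took 9.11% of allogeneic and 0.114% of syngeneic UMIs, and the neutrophil gene S100a8 had a UMI in 83.1% of allogeneic and 1.72% of syngeneic cells. Any Cd3 gene had a UMI in 77.3% and 94.1% of cells, and Cd79a, a B cell gene, in 23.5% and 38.6%, so many syngeneic cells held UMIs of both. The libraries share 66 barcode sequences, of which 26 allogeneic and 66 syngeneic ones passed the filter. Leaving out the shared sequences is among the alternatives; the part of the other differences in the results below was not tested.

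Cells were gated by markers that include no receptor of the list. The gates hold 156 allogeneic and 962 syngeneic memory-like CD8 T cells (at least 2 of 7 memory genes such as Ccl5, Cxcr3 and Il2rb), 184 and 664 intermediate CD8 T cells, 127 and 406 naive-like CD8 T cells, 279 and 923 CD4 T cells, and 225 and 432 B cells. Memory-like cells were 33.4% (29.1 to 37.9) of gated CD8 T cells in the allogeneic and 47.3% (45.2 to 49.5) in the syngeneic library. This share depends on depth, because the gate counts detected genes, and gated CD8 T cells had medians of 4027 and 5139.5 UMIs. Shares at equal depth lie closer together and are given in the last section. The NK-like gate, which needs at least 3 of 9 NK genes and no T, B or myeloid gene, held 1 allogeneic cell of 562 UMIs and 8 syngeneic cells. Cells with UMIs of several lineages were common, and 44.0% and 57.0% of cells stayed ungated. Gates that tolerate a few UMIs of other lineages were added after seeing the data and are called tolerant gates. They differ in other rules too. The NK-like gate no longer excludes S100a8, and CD8 T cells need at least 2 Cd8 UMIs and more than 2 times the Cd4 count. They hold 8 allogeneic and 24 syngeneic NK-like cells. CD8 T cells number 423 and 2854 in them, against 467 and 2032 in the first gates. In the tolerant NK-like gate Ncr1, a defining NK receptor, had a UMI in 5 of 8 and 24 of 24 cells.

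Across all kept cells Klrd1 was the most counted member, with 447 allogeneic and 2895 syngeneic UMIs. Klrk1 followed with 354 and 953, Klrc1 with 42 and 271, Klrg1 with 13 and 141, Klrb1c with 3 and 108, Klre1 with 5 and 77, and Klri2 with 3 and 58. Klra4 had 0 and 5 UMIs, and Klra8 had none in either library. A floor of 3 UMIs is 0.391 CPM (UMIs per 1000000 UMIs) in the allogeneic and 0.0646 CPM in the syngeneic library. The 5 Klra4 UMIs lay in 3 cells, 2 of which also had an Ncr1 UMI. Because BALB/c mice carry neither gene, these UMIs are not read as Klra4 expression, and their source was not tested. Of 7 members with at least 20 UMIs over both libraries, Klrk1 was at least 2-fold higher in the allogeneic library (background 10.5% of 12310 genes) and Klre1, Klri2 and Klrb1c at least 2-fold lower (background 6.8%). Their median log2 ratio was -0.84, against -0.05 over all genes. Summed over the 9 members the level was 113 CPM in the allogeneic and 97.1 CPM in the syngeneic library, a ratio of 1.16 (1.08 to 1.25). In a bulk sum of this kind, fewer cells of a type and less RNA per cell cannot be told apart, so each gate is described in turn.

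**Figure D1:**
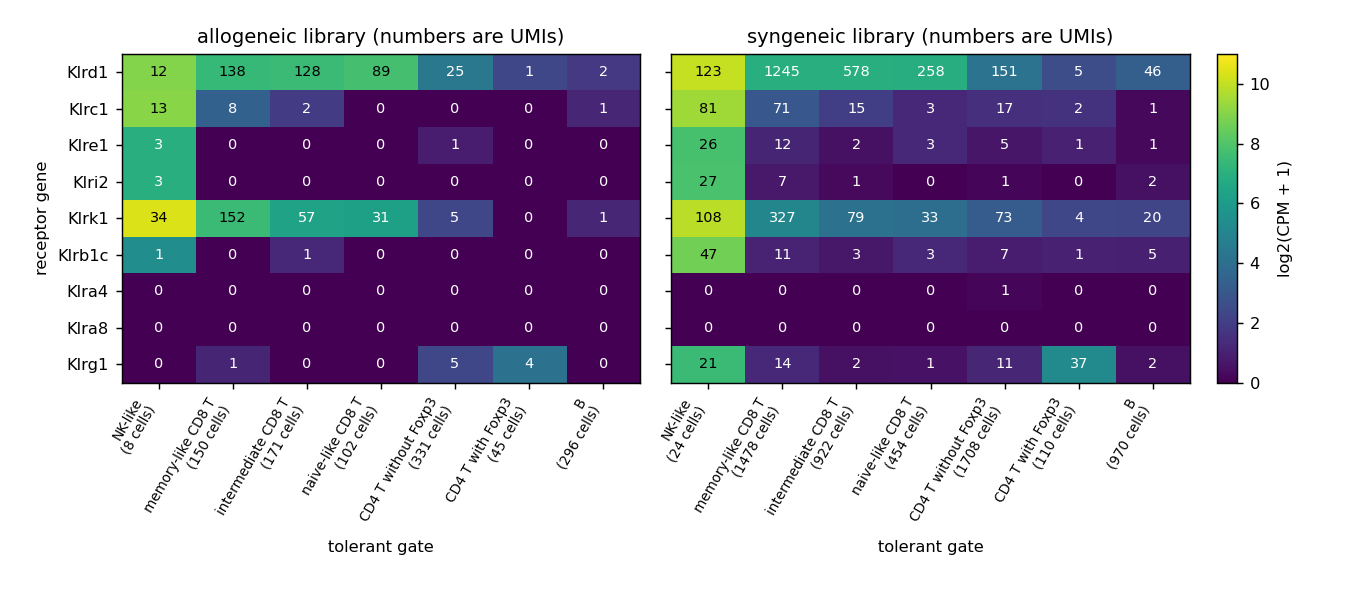
Heat maps of log2(CPM + 1) for the 9 receptor genes (rows) in 7 tolerant gates (columns), allogeneic library on the left and syngeneic on the right, with the UMI number printed in each field. NK-like cells have the brightest fields for 7 genes in the syngeneic library, Klrd1 and Klrk1 extend into all CD8 T gates, Klrg1 also appears in Foxp3-positive CD4 T cells, and the Klra4 and Klra8 rows are dark.

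In NK-like cells the receptors occurred together. All 24 syngeneic NK-like cells of the tolerant gate had a Klrk1 UMI, 20 had Klrd1, 18 had Klrc1, 16 had Klrb1c, 11 had Klre1, 9 had Klri2 and 7 had Klrg1. The median cell held 4.5 of the 9 receptors and the highest 7. In the allogeneic library 4 of the 8 cells held no receptor UMI, and the other 4 held between 2 and 5. These allogeneic cells were shallower (median 3434 against 4128 UMIs), and 7 of the 8 had an S100a8 UMI against 1 of the 24.

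As levels in the tolerant NK-like gate, Klrd1 stood at 489.5 CPM (12 UMIs) in the allogeneic and 1045 CPM (123 UMIs) in the syngeneic library, a ratio of 0.469 (0.236 to 0.848). Its partner Klrc1 stood at 530.3 and 688 CPM (13 and 81 UMIs), with a ratio whose interval, 0.394 to 1.39, includes 1. Klrk1 was the member with more allogeneic signal, 1387 against 917 CPM (34 and 108 UMIs), a ratio of 1.51 (0.997 to 2.24). The allogeneic Klrk1 UMIs came from 4 cells.

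The remaining members gave few UMIs in the allogeneic NK-like cells. Klre1, which can pair with Klri1 or Klri2 into receptors of activating or inhibitory kind, had 3 and 26 UMIs, or 122 and 221 CPM. Klri2 had 3 and 27 UMIs, or 122 and 229 CPM. Klrb1c, which encodes NK1.1, had 1 and 47 UMIs, or 40.8 and 399 CPM, a ratio of 0.102 (0.00253 to 0.598). Klrg1 had 0 and 21 UMIs, or 178 CPM in the syngeneic cells against an allogeneic floor of 122 CPM. No member was called higher (background 11% of 1111 genes) and 2 of 7, Klrd1 and Klrb1c, were called lower in this gate (background 9.36%), and the sum over members had a log2 ratio of -0.45 (-0.85 to -0.07). These values rest on 8 allogeneic cells, of which 5 had an Ncr1, 6 an Nkg7 and 4 a Ccl5 UMI, against all 24 syngeneic cells. Shares with Gzma (5 and 13 cells), Prf1 (4 and 10) and Tyrobp (8 and 23) were higher in the allogeneic cells. CPM divides by the UMIs of all 8 cells. Cells in the gate that are not NK cells and less receptor RNA per NK cell therefore cannot be told apart.

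Klrc1 and Klrc2 (NKG2C) have nearly the same 3′ end, so their sum was also taken. Any reads left uncounted because they match both genes would be missing from the sum too. In the tolerant NK-like gate the sum was 979 CPM in the allogeneic and 1087 CPM in the syngeneic library, a ratio of 0.90 (0.557 to 1.40). In memory-like CD8 T cells it was 23.6 and 14.3 CPM (20 and 87 UMIs), a ratio of 1.65 (0.961 to 2.71). Both intervals include 1. With the tolerant memory-like gate the ratio was 1.86 (1.06 to 3.06), which does not.

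The 8 syngeneic cells of the stricter NK-like gate held Klrc1 at 1093 CPM (40 UMIs), Klrd1 at 793 CPM (29 UMIs) and Klrk1 at 765 CPM (28 UMIs). The single allogeneic cell held no member UMI, so no ratio was formed. In the allogeneic library 13 of the 42 Klrc1 UMIs and 29 of the 354 Klrk1 UMIs fell in the myeloid gate, which accepts cells with S100a8; under the tolerant gates that gate held 1 and 4 of them.

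Pairs of members shared syngeneic NK-like cells as follows. All 11 cells with Klre1 also had Klrb1c, where the product of the shares would give 7.33. Klre1 and Klri2 met in 7 cells (product 4.13). Klrd1 and Klrc1, which form the heterodimer, met in 14 cells (product 15.0), and 6 cells had Klrd1 without Klrc1. Co-detection depends on the depth of each cell, which members of the same cell share, so these counts are descriptive.

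Outside NK cells, Klrk1 carried the main difference between the libraries. In memory-like CD8 T cells it stood at 164 CPM in the allogeneic library (139 UMIs in 55 of 156 cells) and 35.4 CPM in the syngeneic library (215 UMIs in 109 of 962 cells). The allogeneic level was 4.64-fold that of the syngeneic library (3.72 to 5.77), and the counting intervals of the levels, 138 to 194 and 30.8 to 40.5 CPM, do not overlap. Klrk1 was 1 of 4 members measured in this gate and the only one of the 4 past 2-fold (background 9.34% higher and 4.67% lower of 9405 genes). The sum of the 9 members stood at 324 and 185 CPM there, a ratio of 1.75 (1.53 to 1.996).

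The same order held in the other CD8 T gates. In intermediate cells Klrk1 stood at 69.2 and 15.8 CPM (50 and 53 UMIs), a ratio of 4.37 (2.91 to 6.56, background 7.56% higher and 5% lower). In naive-like cells, with no UMI of the 7 memory genes, it stood at 51.1 and 13.5 CPM (24 and 26 UMIs), a ratio of 3.79 (2.08 to 6.86, background 8.16% higher and 4.98% lower). Memory cells of low depth can also meet that rule (median depths of the gate were 3588 and 4470 UMIs). Their part in the naive-like values was not tested. The sum of the members in naive-like cells was 232 and 105 CPM, a ratio of 2.21 (1.74 to 2.81). Within each library Klrk1 was highest in memory-like, then in intermediate and then in naive-like cells. The last 2 have overlapping intervals in the allogeneic (51.3 to 91.2 and 32.7 to 76.0 CPM) and the syngeneic library (11.9 to 20.7 and 8.81 to 19.8 CPM).

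**Figure D2:**
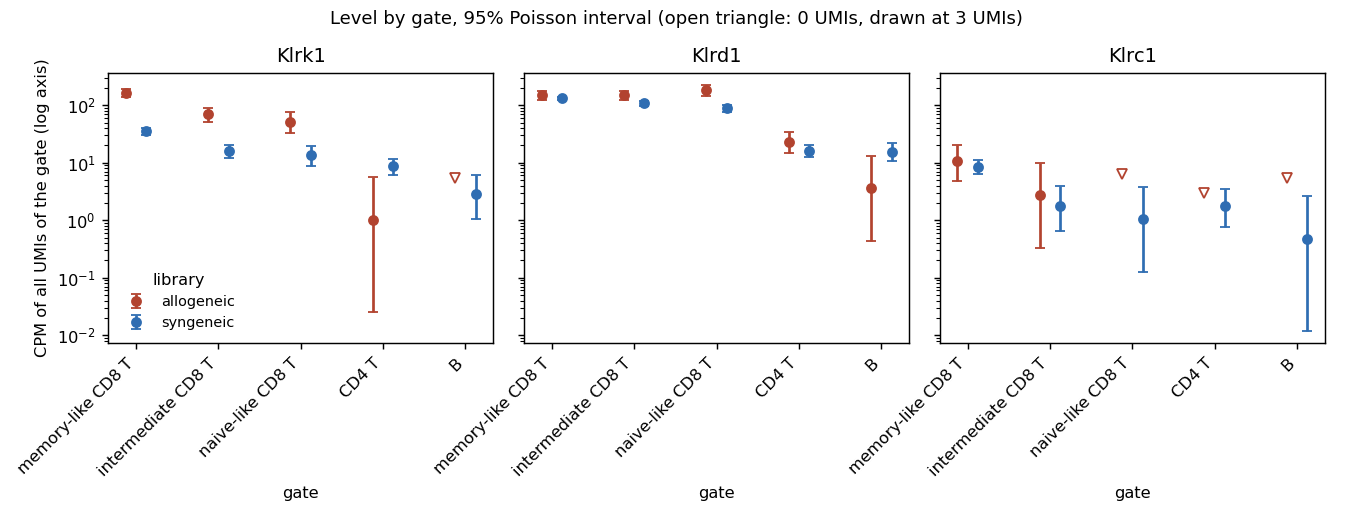
CPM on a log axis of Klrk1, Klrd1 and Klrc1 in 5 gates, allogeneic in red and syngeneic in blue, with 95% Poisson intervals; open triangles mark 0 UMIs and are drawn at 3 UMIs. Klrk1 is separated between the libraries in all 3 CD8 T gates, Klrd1 in naive-like and narrowly in intermediate CD8 T cells, and Klrc1 in none.

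The Klrk1 difference was not carried by a handful of cells in the memory-like gate. Of the 55 allogeneic cells with Klrk1, 18 had 1 UMI, 14 had 2 and 23 had 3 or more, with a maximum of 8. Of the 109 syngeneic cells, 63 had 1 UMI, 23 had 2 and 23 had 3 or more, also with a maximum of 8. The 5 highest cells held 22.3% and 16.7% of the UMIs. In naive-like cells the 5 highest held 50% of the 24 allogeneic UMIs, so that gate rests on fewer cells.

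At equal depth the share of cells with Klrk1 differed too. After each cell was thinned to 2000 UMIs, 25.3% (18.6 to 33.1, 38 of 150) of allogeneic and 4.78% (3.52 to 6.33, 46 of 962) of syngeneic memory-like cells had a Klrk1 UMI; unthinned shares were 35.3% and 11.3%, and 6 allogeneic cells were too shallow. In intermediate cells the thinned shares were 11.6% (7.21 to 17.3) and 2.86% (1.73 to 4.43). In naive-like cells they were 3.48% (0.956 to 8.67) and 1.72% (0.696 to 3.52), so a difference in that share was not detectable at this depth. B cells, which should lack the gene, gave 0 of 157 and 0.926% (0.253 to 2.35), with median depths of 2253 and 4160 UMIs. Naive-like shares have intervals that overlap those of B cells in both libraries, and memory-like shares do not.

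CD4 T cells went the other way. Klrk1 had 1 allogeneic UMI in 279 cells (0.999 CPM) and 40 syngeneic UMIs in 923 cells (8.69 CPM), a ratio of 0.115 (0.00284 to 0.679). It was the 1 of 3 measured members called lower (background 4.27% of 9175 genes), and none was called higher (background 9.42%). The syngeneic UMIs lay in 15 cells, and 5 of those cells held 67.5% of them. Under the tolerant gate the levels were 3.39 and 7.83 CPM, a ratio whose interval of 0.137 to 1.06 includes 1. After thinning, 0 of 262 and 1.19% (0.596 to 2.12) of cells had a UMI, which overlaps the shares in B cells, so no difference is read from them. The sum of the members in CD4 T cells was 29.0 and 34.7 CPM, a ratio of 0.834 (0.541 to 1.24).

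Klrd1 behaved differently from Klrk1. In memory-like CD8 T cells it stood at 149 CPM in the allogeneic (126 UMIs) and 131 CPM in the syngeneic library (797 UMIs), a ratio of 1.13 (0.932 to 1.37). In intermediate cells the levels were 148 and 108 CPM, a ratio of 1.37 (1.09 to 1.70). In naive-like cells they were 181 and 88.2 CPM (85 and 170 UMIs), a ratio of 2.05 (1.56 to 2.68), so both measured members, Klrk1 and Klrd1, passed 2-fold there (background 8.16% of 7269 genes). That ratio was 0.63 on the log2 scale in thinned cells against 1.04 in all cells, and so fell below 2-fold.

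The order of Klrd1 levels over the CD8 T gates was not the same in the libraries. In the syngeneic library it was highest in memory-like (122 to 141 CPM), then in intermediate (97.5 to 120.1) and naive-like cells (75.5 to 102.5), with overlapping intervals between the last 2. In the allogeneic library the naive-like level was the highest, but the 3 intervals overlap (124 to 177, 121 to 179 and 145 to 224 CPM). After thinning, 21.3% and 22.7% of memory-like cells and 32.2% (23.8 to 41.5) and 16.8% (13.3 to 20.7) of naive-like cells had a Klrd1 UMI. CD4 T cells had 5.34% and 3.25%, and B cells 0 of 157 and 2.78%, so CD8 T cells of either library exceed the B cell share.

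**Figure D3:**
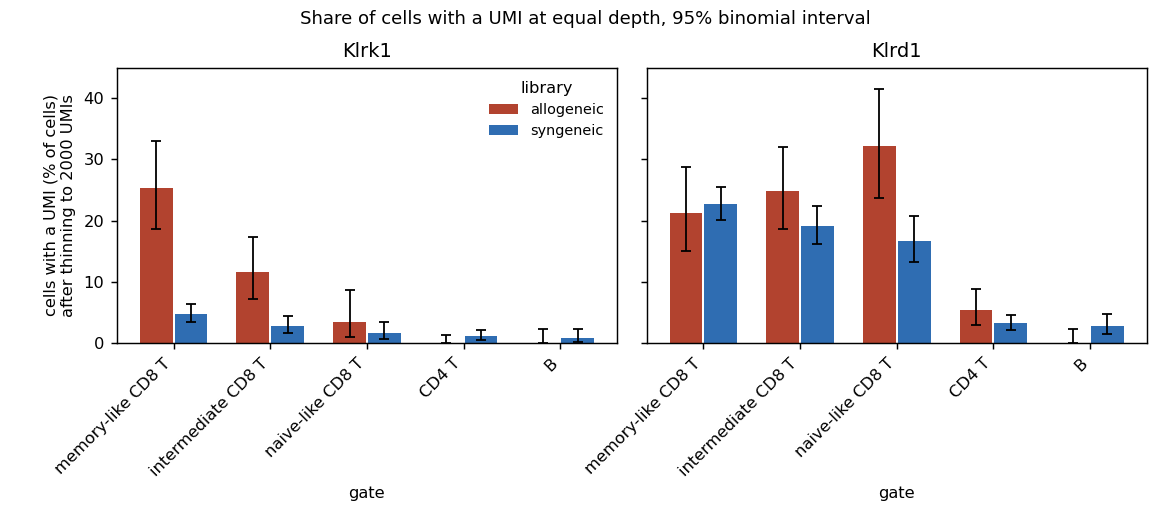
Share of cells with a UMI of Klrk1 (left) and Klrd1 (right) after thinning each cell to 2000 UMIs, by gate, with exact 95% binomial intervals; allogeneic bars are red and syngeneic bars blue. The Klrk1 share is 25.3% against 4.78% in memory-like cells, and the Klrd1 share is 21.3% against 22.7% there but 32.2% against 16.8% in naive-like cells.

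Klrc1 was sparse in CD8 T cells. It had 9 allogeneic UMIs in 7 memory-like cells (10.6 CPM) and 51 syngeneic UMIs in 38 cells (8.40 CPM), a ratio of 1.27 (0.548 to 2.60). Naive-like cells had 0 and 2 UMIs. Klre1, Klri2, Klrb1c and Klrg1 had no UMI in the 156 allogeneic memory-like cells, and 16, 9, 21 and 16 in the 962 syngeneic ones. The allogeneic floor there is 3.55 CPM and the syngeneic levels were 2.64, 1.48, 3.46 and 2.64 CPM, so the depth cannot show a difference.

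Co-detection was also counted in memory-like cells. Klrd1 and Klrk1 met in 28 of 156 allogeneic cells (product of shares 23.3) and in 67 of 962 syngeneic cells (product 52.5). Klrc1 and Klrk1 met in 13 syngeneic cells where the product gives 4.31. At least 2 members were found in 20.5% of allogeneic and 9.56% of syngeneic memory-like cells, in 7.09% and 3.20% of naive-like cells and in 0% and 0.867% of CD4 T cells. In the syngeneic library 3 cells of the memory-like gate had Klre1 with Klri2 and 4 had Klre1 with Klrb1c, against products of 0.0437 and 0.0561. These few cells carry the combination seen in the NK-like gate.

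The memory-like cells with Klrk1 were compared with those without it, within each library. In the syngeneic library the Klrk1-positive cells had 359 CPM of Tyrobp against 45.6 in the others, 228 against 9.35 CPM of Fcer1g, another signalling adaptor, and 514 against 10.9 CPM of Gzma, a granule protease. These levels rest on few cells: 22, 16 and 11 of the 109 had the gene, and a single cell held 254 of the 426 Gzma UMIs. The highest Gzma count of a syngeneic cell in the tolerant NK-like gate was also 254. For Fcer1g the highest count was 63 in these Klrk1-positive cells and 13 in the tolerant memory-like gate. The part of NK cells in these levels was not tested, so they are not read as traits of memory CD8 T cells. Lag3, an inhibitory receptor, stood at 45.8 against 8.21 CPM (13 of 109 and 28 of 853 cells), and Xcl1, a chemokine, at 124 against 55.0 CPM (23 and 76 cells). In the allogeneic library Tyrobp stood at 103 against 354 CPM and Fcer1g at 175 against 409 CPM, that is lower in the 55 positive than in the 101 other cells. By cells the order was reversed for Tyrobp (10 of 55 and 12 of 101), and the shares were close for Fcer1g (8 of 55 and 16 of 101). The levels of the others thus rest on few cells with many UMIs (186 Tyrobp UMIs in 12 cells). Both genes are also abundant in neutrophils, whose S100a8 was widespread there. Ccl5, a chemokine of memory cells and a gate marker, was higher with Klrk1 in both libraries (1120 against 466 and 1711 against 841 CPM). So was Klrd1, with ratios of 1.69 (1.17 to 2.44) in the allogeneic and 1.74 (1.46 to 2.06) in the syngeneic library. Ly6c2, a surface antigen of memory CD8 T cells, had ratios of 1.81 and 1.23. Positive cells were also deeper, with medians of 5780 against 4363 and 6520 against 5717 UMIs.

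Cells with each receptor were then counted by markers without any gate. Cells with Klrd1 were mostly CD8 T cells: 77.9% of 280 allogeneic and 83.6% of 1813 syngeneic cells had a Cd8 UMI, against 31.7% and 55.9% of all cells. For Klrk1 the shares were 75.6% of 160 and 72.2% of 492. Ncr1 had a UMI in 1.16% of all syngeneic cells but in 71.0% of the 31 cells with Klri2, 59.3% of the 59 with Klrb1c and 53.5% of the 43 with Klre1. It was found in 22.2% of Klrc1, 11.2% of Klrk1 and 3.48% of Klrd1 cells. A Cd3 UMI was nevertheless present in 90.3%, 88.1% and 88.4% of the Klri2, Klrb1c and Klre1 cells, against 94.1% of all cells. The tolerant NK-like gate held 46.6%, 43.5% and 33.8% of the syngeneic UMIs of these 3 genes.

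Klrg1 stood apart in its overlap with Foxp3. Foxp3, the regulatory T cell factor, had a UMI in 25 of 59 syngeneic Klrg1 cells (42.4%) against 4.05% of all cells, and in 5 of 8 allogeneic Klrg1 cells against 6.79% of all. Other Klrg1 signal lay elsewhere: among the 59 syngeneic cells 12 had an Ncr1 UMI (20.3%) and 27 a Cd8 UMI (45.8%). In gated CD4 T cells with Foxp3, Klrg1 stood at 29.7 CPM (3 UMIs) and 58.2 CPM (20 UMIs), a ratio of 0.511 (0.0972 to 1.72). In CD4 T cells without Foxp3 it had 1 and 8 UMIs, or 1.11 and 1.88 CPM. Over all cells Klrg1 had a ratio of 0.558 (0.29 to 0.985), and no level difference could be shown within the Foxp3-positive gate at this depth.

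**Figure D4:**
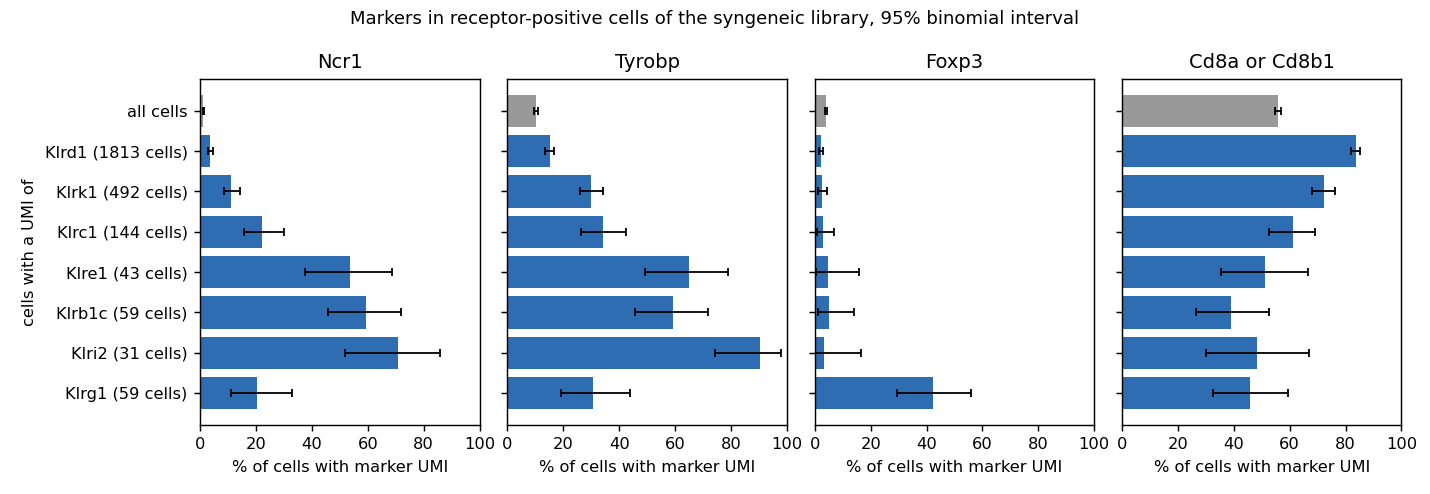
Share of syngeneic cells with a UMI of Ncr1, Tyrobp, Foxp3 or Cd8 (4 panels), among cells with a UMI of each receptor (blue) and among all cells (grey), with exact 95% binomial intervals. Ncr1 is found in 53.5% to 71.0% of Klre1, Klrb1c and Klri2 cells and in 3.48% of Klrd1 cells, and Foxp3 is found in 42.4% of Klrg1 cells.

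The rest of the family was taken from a list of 21 symbols, of which 17 were in the gene list and 9 had at least 20 UMIs. Of those 9, Klra2 was at least 2-fold higher in the allogeneic library (24 and 8 UMIs, background 10.5%) and 3 were at least 2-fold lower (background 6.8%), namely Klra5 (1 and 50), Klra7 (0 and 49) and Klrb1a (3 and 66). Klra1 (1 and 31 UMIs) is past 2-fold by its counts but not with the floor of 3. Klra3, which encodes Ly49C and is present in BALB/c, was the most counted Ly49 gene with 42 and 309 UMIs. In the tolerant NK-like gate it stood at 1305 and 1113 CPM, a ratio of 1.17 (0.771 to 1.74). The allogeneic UMIs lay in 3 of 8 cells, with 23 of 32 in a single cell, and the syngeneic UMIs in 13 of 24 cells. The interval does not cover this spread between cells. Klrb1f had 27 and 281 UMIs over all cells, and 1 and 63 in that gate. Klrc2 had 35 and 162 UMIs and Klra17 22 and 93. The median log2 ratio of the 9 was -0.77.

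Of 15 adaptor and signalling genes, 2 were at least 2-fold higher over all cells (background 10.5% higher and 6.8% lower), Fcer1g (265 and 39.2 CPM) and Sh2d1b1 (25 and 56 UMIs), and 1 was lower, Ptpn6 (114 and 236 CPM), which encodes a phosphatase of inhibitory receptors. The median log2 ratio of the 15 was -0.17. In memory-like CD8 T cells 14 were measured, of which 2 were higher and none lower (background 9.34% and 4.67%, median -0.01). Hcst, which couples to NKG2D, stood at 528 and 549 CPM there, a ratio of 0.962 (0.87 to 1.06), while Klrk1 itself differed 4.64-fold. Those higher were Tyrobp (259 and 88.5 CPM) and Fcer1g (320.3 and 39.2 CPM). In the tolerant memory-like gate Tyrobp stood at 211 and 122 CPM, a ratio of 1.73 and so below 2-fold, and Fcer1g at 182 and 25.1 CPM. Both were also higher in the tolerant CD4 T gate (Tyrobp 193 and 84.8 CPM, Fcer1g 222 and 31.1 CPM), so this was not particular to memory-like cells. Shares of cells with Tyrobp were closer in these 2 tolerant gates (12% and 11.4%, 9.57% and 7.81%) than those with Fcer1g (14% and 5.07%, 9.04% and 4.35%). Single allogeneic cells held 64 of 177 and 67 of 284 Tyrobp UMIs. In the tolerant NK-like gate Hcst stood at 612 and 680 CPM, Tyrobp at 1265 and 3449 CPM and Fcer1g at 1305 and 1588 CPM. Lck, a proximal kinase, stood at 367 and 603 CPM there.

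Ligand genes were read in the same cells. Of 20 listed, 15 were in the gene list and 10 were measured over all cells, with none at least 2-fold higher (background 10.5%) and 4 lower (background 6.8%), namely Clec2d, Ulbp1 (7 and 85 UMIs), Cdh1 (0 and 39) and Cdh2 (1 and 41). The median log2 ratio of the 10 was -0.28. H2-T23, which encodes Qa-1, the ligand of the CD94 and NKG2A pair, stood at 594 and 327 CPM over all cells, a ratio of 1.82 (1.76 to 1.88), and at 654 and 312 CPM in memory-like cells, where its ratio was 2.10 (1.90 to 2.31). In memory-like cells 6 ligands were measured, of which H2-T23 was called higher (background 9.34%) and Clec2d lower (background 4.67%). The class I genes H2-D1 (6400 and 4861 CPM) and H2-K1 (1969 and 1410 CPM) had ratios of 1.32 and 1.40 over all cells. H2-T23, H2-D1 and H2-K1 were also higher in CD4 T and B cells (H2-T23 ratios 1.84 and 2.54). In the myeloid gate (134 and 18 cells) their ratios were 0.622, 0.763 and 0.70. H60b, which encodes a ligand of NKG2D, stood at 8.21 and 8.55 CPM (ratio 0.96, 0.724 to 1.26). Clec2d, which encodes a ligand of NKR-P1 receptors, stood at 52.5 and 114 CPM. These genes are polymorphic between strains, and the reference is a C57BL/6 genome; the part of this in the values was not tested.

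Over 8 gates of the syngeneic library the genes whose log2(CPM + 1) ran closest to each member were listed, among 9928 genes. For Klrd1 they were Pim2, Med15 and Sntb2 (Pearson r 0.976 to 0.959), for Klrk1 Surf1, Arid5a and Il15ra (0.976 to 0.974), and for Klrc1 Gm15800, Higd1a and Fbxl8 (0.989 to 0.982). For Klrb1c they were Klrc2 (0.995), Gm15800 and Tmco4, and for Klrg1 Ccr4 (0.988), Rapsn and Slc22a2. The 8 points come from a single library, the NK-like point rests on 8 cells, and the values are given as a description.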

How the data were processed

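Counts were measured in 2 libraries, 1 per group. The authors deposited UMI count matrices with gene and barcode lists; per the submitters' processing notes Cell Ranger 2.2.0, STAR, Seurat 2.3.4 and mm10 were used. The selection of barcodes was not stated there; the lowest barcode held 150 UMIs in the allogeneic and 3447 in the syngeneic matrix, so the libraries were selected differently. The members, gates and gene lists were chosen with earlier results of these data known.

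UMIs were summed per gate and library, divided by all UMIs of the gate (CPM), and compared as ratios with exact conditional Poisson intervals; shares have Clopper-Pearson intervals (numpy 2.4.6, scipy 1.17.1, pandas 2.3.3). Calls needed a 2-fold CPM difference and a summed count of 20 UMIs or more, with counts under 3 set to 3. The interval code was tested on simulated data. Named genes were all 9 members, other family genes with at least 20 UMIs, up to 4 adaptors and 4 ligands by UMI number (H60b and other listed genes past 2-fold were named after their values were seen), and the 3 genes most like each member with at least 100 syngeneic UMIs. Genes in the Klrk1-positive comparison were also chosen after the gates were seen.

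Doublets were not called: gates leave out cells with markers of several lineages, and a version without the 5% deepest cells was run. Trdc had no row in the gene lists used here, so the gate for it stayed empty and 8 gates entered the likeness measure. Sequences were read from RefSeq (GRCm38.p6) and aligned with biopython 1.88.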

Additional observations from a re-analysis of the deposited data

Results flagged for a closer look

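Klrk1 also appeared in barcodes that no comparison used. The 1394 allogeneic barcodes left out by the cell filter held 50 Klrk1 UMIs among 737407, or 67.8 CPM (50.3 to 89.4), against 46.1 CPM in the kept allogeneic cells. Klrd1 stood at 55.6 CPM in the left-out barcodes and 58.2 CPM in kept cells, while Klre1, Klri2, Klrb1c and Klrg1 had no UMI there. The 10 left-out syngeneic barcodes held 4 Klrk1 UMIs. Which cells these transcripts came from was not tested.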

How the results depend on the processing

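No paired analysis was possible because each group has 1 library. No called result reversed under the alternatives run, and 109 of 114 alternative values of single members moved by less than their counting interval, while 21 of 80 values of the sums, shares and counts of calls moved by more (given below). Klrk1 kept its direction in memory-like CD8 T cells (log2 ratio 2.21, range 1.93 to 2.49 over 9 alternatives), naive-like cells (1.92, 1.86 to 2.35 over 8), CD4 T cells (-3.12, -3.25 to -1.21 over 6) and all cells (1.17, 1.04 to 1.53 over 7). Klrd1 and Klrc1 over all cells changed sign in 4 of 7 alternatives each, always near 0, Klrg1 in CD4 T cells in 2 of 8 and Klrd1 in memory-like cells in 1 of 9 (-0.05).

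The log2 ratio of the member sum over all cells (0.218) was 0.526 in cells as deep as the shallowest syngeneic barcode, 0.0863 in thinned cells, 0.372 without the 5% deepest cells and 0.355 without haemoglobin and mitochondrial UMIs. In memory-like cells it was 0.805, and 1.10 with tolerant gates. In CD4 T cells it was -0.262, and 0.033 in thinned cells. In the NK-like gate as first set no ratio exists; in the tolerant gate it was -0.45, -0.83 with at least 2 markers and -0.36 with at least 4.

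The allogeneic NK-like share (0.0475%) was 0 with the filter of 500 genes and 5% mitochondrial UMIs, in deep cells and with at least 4 markers, and 0.38% with tolerant gates; the syngeneic share (0.101%) was 0.302% with tolerant gates. The memory-like share of CD8 T cells (33.4% allogeneic, 47.3% syngeneic) was 41.3% in deep allogeneic cells, 14.6% and 18.1% in thinned cells, 12.2% and 20.8% with at least 3 markers, and 51.8% in the syngeneic library with tolerant gates. With no UMI floor, members called higher were 2 in all cells, 2 in memory-like, 6 in naive-like and 3 in CD4 T cells (1, 1, 2 and 0 at the floor of 20), because counts of 0 to 2 stand at the floor of 3; with a floor of 50, members called lower in CD4 T cells were 0 in place of 1. Tolerant gates and the version without shared barcode sequences were chosen after seeing the data. Where no cause is named, the cause was not tested.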
